A study of Rattus norvegicus with 138 samples.

Results

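The genes described here encode the developmental isoforms of the sarcomere. The 5 members are Myh3, Myh8, Myl4, Actc1 and Tnnt2. They were chosen by name, as developmental isoforms, from 16181 gene symbols in the deposited expression table, and all 5 were present and passed the filter on low values.

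The contractile unit of muscle is built from myosin heavy chains, which are the motors, myosin light chains, which sit on the neck of the motor, actin thin filaments, and the troponin complex, which makes the thin filament respond to calcium. Each of these parts exists in isoforms from separate genes, and a developing muscle fiber uses a set that adult limb muscle largely replaces. Myh3 encodes embryonic myosin heavy chain and Myh8 the perinatal (neonatal) heavy chain. Myl4 encodes the embryonic and atrial alkali light chain. Actc1 encodes cardiac alpha-actin, and Tnnt2 encodes cardiac troponin T. Both are sarcomere proteins of the adult heart that embryonic skeletal muscle also makes, and all 5 genes are commonly read as markers of newly forming fibers after damage.

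RNA-Seq was performed on the tibialis anterior (TA), a muscle of the shin, of inbred male Lewis rats. A 6 mm biopsy punch removed the middle of the left TA in a volumetric muscle loss (VML) injury, an injury that takes away more tissue than the muscle regenerates. The defect was left without repair or filled with an autologous minced muscle graft (MMG), which is the rat's own muscle cut into small pieces, and muscles were taken at 3, 7, 14 and 28 days post injury (DPI). After 13 of 138 libraries were dropped for fewer than 7000 symbols above 1 TPM (the deposited unit, a read abundance scaled for transcript length and library total) and 9 were set aside because their labels conflict, 114 muscles of 78 rats in 31 groups remained. They comprised 4 control muscles, 34 contralateral muscles (the uninjured leg of an injured rat) and 76 injured muscles. Each combination of day, repair and running held 2 to 8 muscles. Rats labelled as running received the same injury and repair, and how they ran was not given in the sources used here. The 4 control muscles are labelled Sham at day 0, which the study describes as unoperated, and came from both legs of 2 rats. Those rats carry another identifier series than all injured rats, so that series and the control group cannot be told apart. Kept libraries held 7866 to 10948 symbols above 1 TPM.

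Differences are given on the log2(TPM + 1) scale with the standard error (SE) from limma, a linear model fitted to all 11328 tested genes. A gene was called at a Benjamini-Hochberg adjusted p under 0.05 and a difference beyond 1, that is, 2-fold. Each sample was a whole piece of muscle, so fewer cells of a type and less RNA per cell cannot be told apart.

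Actc1 with Myl4 and Myh3 with Myl4 were the 2 member pairs whose levels had correlations above 0.9 over the injured muscles, and the 250 bases before the start of these 3 genes are shown so that the sequence upstream of genes that moved together can be read. The sequences are from RefSeq on rat assembly GRCr8, 5′ to 3′ on the gene's strand. Capitals mark E-boxes (CANNTG, the core bound by the MyoD family of myogenic factors) and CArG-type matches (CC and GG with any 6 bases between them, a loose form of the serum response factor core).
Myh3, chr10:52268935-52269184, plus strand: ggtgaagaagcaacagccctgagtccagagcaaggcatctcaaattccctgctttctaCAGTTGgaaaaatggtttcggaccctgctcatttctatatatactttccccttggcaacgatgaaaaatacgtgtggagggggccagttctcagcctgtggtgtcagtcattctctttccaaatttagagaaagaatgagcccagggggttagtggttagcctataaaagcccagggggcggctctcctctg
Myl4, chr10:89975900-89976149, plus strand: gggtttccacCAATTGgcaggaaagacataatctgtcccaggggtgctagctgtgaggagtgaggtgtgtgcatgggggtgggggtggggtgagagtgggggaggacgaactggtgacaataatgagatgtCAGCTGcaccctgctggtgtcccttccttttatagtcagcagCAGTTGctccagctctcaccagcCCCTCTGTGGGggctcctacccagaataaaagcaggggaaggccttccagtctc
Actc1, chr3:121271828-121272077, minus strand: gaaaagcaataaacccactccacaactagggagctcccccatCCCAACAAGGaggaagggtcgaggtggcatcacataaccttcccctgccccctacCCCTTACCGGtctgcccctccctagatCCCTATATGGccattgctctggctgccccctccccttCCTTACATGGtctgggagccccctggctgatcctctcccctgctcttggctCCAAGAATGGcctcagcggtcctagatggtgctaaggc

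The Myh3 window held 1 E-box, with its first base at -192 from the start, and a TATAAA at -30 on the gene's strand. Myl4 held 3 E-boxes, at -240, -119 and -77, and 2 overlapping CArG-type matches at -54 and -53. Actc1 held 5 CArG-type matches, at -208, -153, -126, -89 and -38, and no E-box. The windows of the other members are not printed. The RefSeq window of Myh8 (chromosome 10) may lie before an internal exon rather than the first one, so its motifs are not given. The 2 Tnnt2 windows (chromosome 13) held 4 and 1 E-boxes and 3 CArG-type matches each. No window of Myh3, Myl4, Actc1 or Tnnt2 held CTA and TAG with any 4 bases between them, a core of the MEF2 type. E-boxes were present in 65.5% and CArG-type matches in 65.1% of 33469 rat promoter windows searched in the same way on both strands, and the MEF2-type core in 3.41%. TATAAA was searched on the gene's strand alone, in the members and in all windows, and was present in 8.06%, and no E-box overlapped a CArG-type match in the windows shown. These matches describe the letters only. Myh3, Myh8 and Myl4 lie on chromosome 10.

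In uninjured control TA the 5 genes were expressed at very different levels. Myh3 was at 1.55, 2.41, 2.55 and 2.91 TPM in the 4 control muscles, and Tnnt2 at 1.12, 1.13, 1.21 and 1.76 TPM. Myh8 was at 6.57, 7.41, 7.54 and 8.33 TPM. Myl4 lay at 29.4, 30.2, 32.2 and 38.7 TPM and Actc1 at 25.2, 41.2, 49.0 and 50.7 TPM, so these 2 overlapped each other and stood above the other 3 members. Because TPM is scaled for length, the levels of different genes can be set side by side. The adult isoforms were far more abundant: in control muscle Actc1 made up a median of 0.0958% of the summed TPM of Acta1 (adult skeletal alpha-actin) and Actc1, and Tnnt2 0.0049% of the 3 troponin T genes. Acta1 and Actc1 encode nearly identical proteins, so reads assigned to Actc1 at its low levels in uninjured muscle may in part come from Acta1. The same reservation holds for Myh3 and Myh8 beside the adult heavy chain genes.

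**Figure D1:**
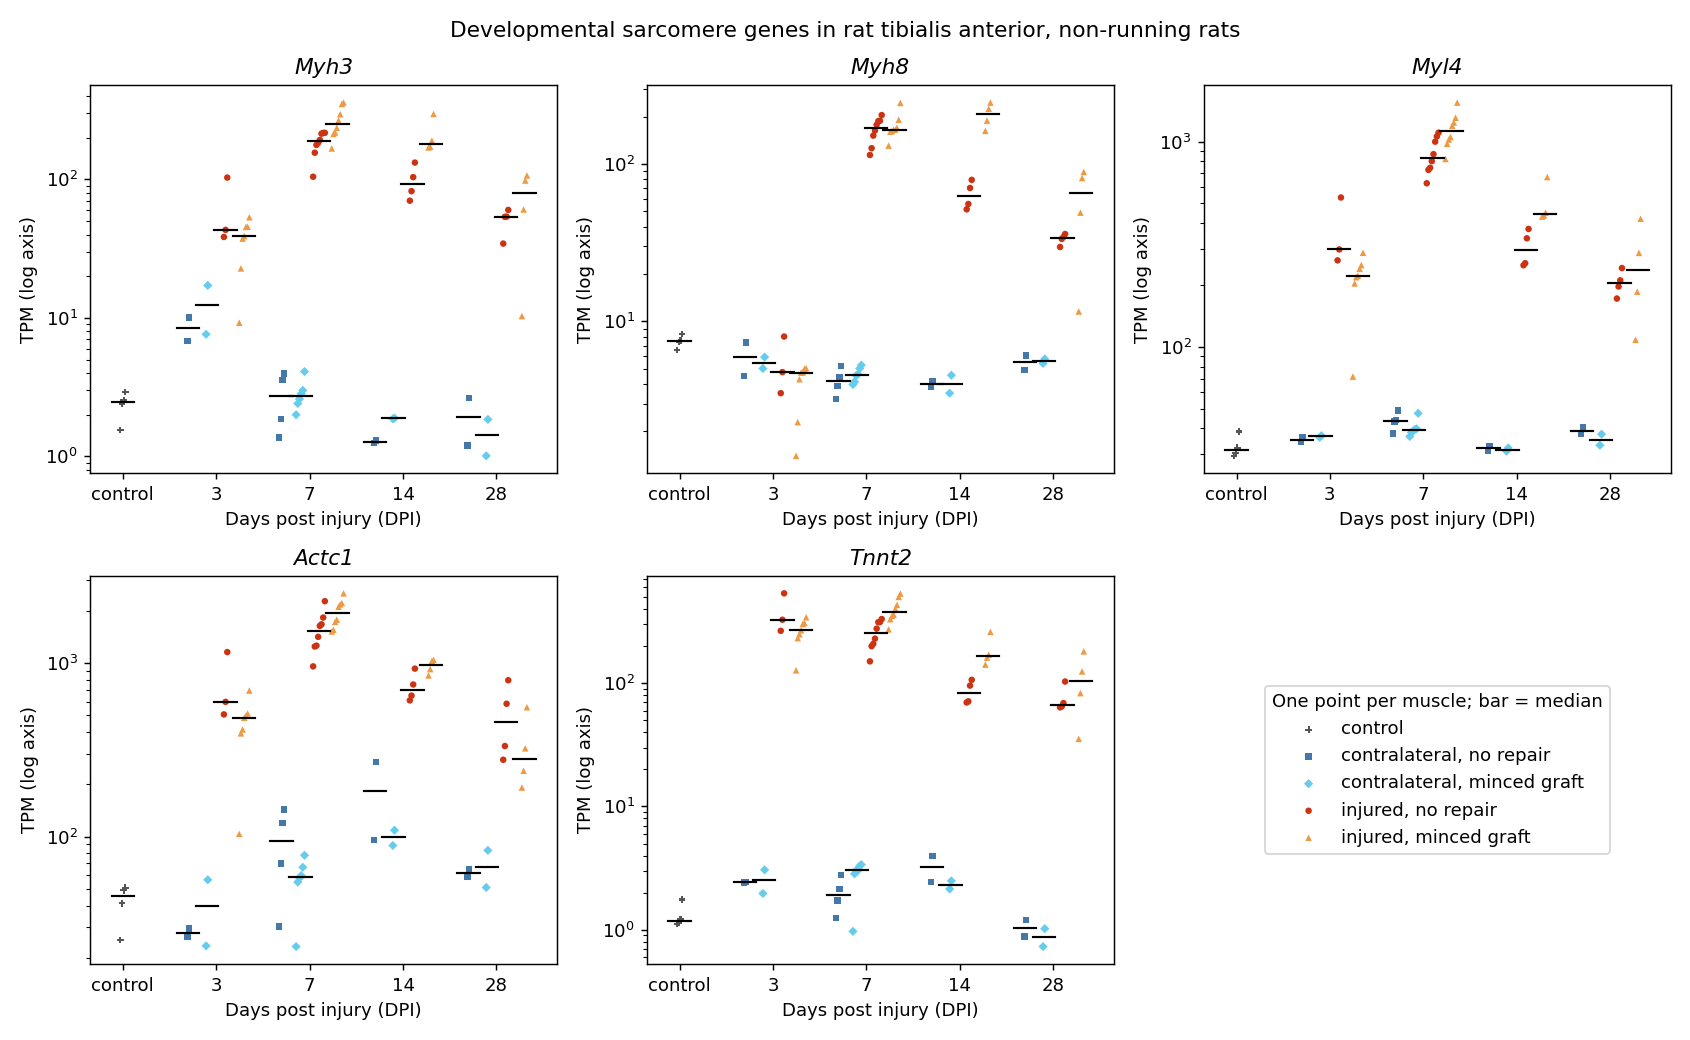
TPM of each member (log axis) by days post injury in non-running rats, 1 point per muscle with the median as a bar, for control, contralateral and injured muscle with and without minced graft. Injured muscles stand above control and contralateral muscles for all members from 7 DPI, whereas Myh8 at 3 DPI lies at or under the control values.

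The first comparison asked how the genes behaved in injured muscle without repair against control muscle and against the contralateral muscle of rats at the same day. At 3 DPI 4 of the 5 members were higher in injured muscle and Myh8 was not. At 7, 14 and 28 DPI all 5 were higher against both references. The shares of all tested genes called against control were 52.6%, 48.1%, 25.5% and 21.3% at 3, 7, 14 and 28 DPI, and those against the contralateral muscle 38.2%, 47.4%, 21.1% and 13.3%. Both sets of comparisons use the same injured muscles. Injured and contralateral muscles did not overlap for 4, 5, 5 and 5 members at these days, as was the case for 78.5%, 71.5%, 80.9% and 75.6% of all tested genes, so a lack of overlap is common in these groups.

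Myh3, the embryonic heavy chain, was at 38.4, 43.2 and 103 TPM in the 3 injured muscles at 3 DPI, against 6.80 and 10.04 TPM in the 2 contralateral muscles. At 7 DPI the 8 injured muscles ranged from 105 to 217 TPM with a median of 189, and the 4 contralateral muscles were at 1.37, 1.86, 3.56 and 3.97 TPM. At 14 DPI the injured muscles were at 70.2, 82.3, 104 and 132 TPM and the contralateral muscles at 1.25 and 1.30 TPM. By 28 DPI the injured muscles had values of 34.4, 53.7, 53.8 and 60.2 TPM, and the contralateral muscles 1.2 and 2.65 TPM. Injured and contralateral muscles did not overlap at any day. The log2 differences from the contralateral muscle were 2.61 ± 0.53 (SE, adjusted p = 1.15e-05), 5.67 ± 0.36 (5.22e-26), 5.39 ± 0.51 (5.42e-15) and 4.16 ± 0.51 (2.17e-10) at 3, 7, 14 and 28 DPI.

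Myh8, the perinatal heavy chain, was the member that was not higher at 3 DPI. Its injured muscles were then at 3.50, 4.76 and 8.01 TPM and the contralateral muscles at 4.49 and 7.32 TPM, which overlapped (log2 difference -0.13 ± 0.42, adjusted p = 0.79). Against control muscle the difference was -0.45 ± 0.35 (adjusted p = 0.223). With median-of-ratios size factors, a scaling that sets the typical gene rather than the total to be equal between libraries, it was -1.47 (adjusted p = 7.43e-05) and Myh8 was called lower than control at 3 DPI. Without that scaling the median over all genes in this comparison was 0.961. Over all injured muscles at 3 DPI, with or without graft and running, Myh8 ranged from 1.40 to 8.01 TPM, and 22 of 24 muscles were under every control value, as 22 or more were for 7.37% of all tested genes.

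At 7 DPI Myh8 was at 114 to 204 TPM in the 8 injured muscles, with a median of 170.1, and at 3.22, 3.90, 4.44 and 5.21 TPM in contralateral muscle. This was a log2 difference of 4.98 ± 0.28 (adjusted p = 1.2e-28). At 14 DPI the injured muscles were at 51.5, 55.7, 70.3 and 79.2 TPM and at 28 DPI at 29.7, 33.4, 34.3 and 35.9 TPM, while the contralateral muscles were at 3.87 and 4.16 TPM and at 4.91 and 6.08 TPM. The groups did not overlap from 7 DPI on. The differences were 3.68 ± 0.40 (adjusted p = 1.6e-12) and 2.40 ± 0.40 (9.78e-07).

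Myl4, the embryonic light chain, was at 264, 298 and 534 TPM in injured muscle at 3 DPI and at 34.3 and 36.3 TPM in contralateral muscle. It reached 626 to 1105 TPM at 7 DPI (median 836) against 37.7, 43.2, 43.9 and 49.0 TPM. At 14 DPI it was at 249.6, 255, 338 and 375 TPM, and at 28 DPI at 172, 197, 211 and 242 TPM, against contralateral values of 31.2 and 32.8 TPM and of 37.7 and 40.5 TPM. The injured muscles lay above the contralateral muscles at each day without overlap. The log2 differences were 3.27 ± 0.36 (adjusted p = 2.24e-13), 4.27 ± 0.24 (6.02e-29), 3.19 ± 0.34 (6.58e-13) and 2.35 ± 0.34 (2.83e-08).

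Actc1, cardiac alpha-actin, was the most abundant member in injured muscle. It was at 506, 598 and 1158 TPM at 3 DPI against 26.4 and 29.4 TPM in contralateral muscle. At 7 DPI it ranged from 958 to 2277 TPM (median 1529), and the contralateral muscles were themselves widely spread at 30.3, 69.9, 119.7 and 143 TPM. At 14 DPI the injured muscles were at 609.9, 649.6, 753 and 930.4 TPM and the contralateral muscles at 95.5 and 269.9 TPM. At 28 DPI the injured muscles were at 277, 333, 583 and 797 TPM and the contralateral muscles at 58.6 and 64.9 TPM. No injured muscle overlapped the contralateral muscles of its day. The log2 differences were 4.61 ± 0.50 (adjusted p = 1.27e-13), 4.24 ± 0.33 (1.01e-20), 2.17 ± 0.47 (5.97e-05) and 2.86 ± 0.47 (8.06e-07). The smallest of these, at 14 DPI, has the highest contralateral values beside it. It was 1.42 without the contralateral muscle of rat 129 and 2.91 without that of rat 133, and was called in both cases.

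Tnnt2, cardiac troponin T, had the largest log2 difference among the members at 3, 7 and 28 DPI against the contralateral muscle. It was already at 266, 327 and 535 TPM at 3 DPI, against 2.41 and 2.43 TPM. At 7 DPI it ranged from 150 to 331 TPM with a median of 253, against 1.25, 1.73, 2.13 and 2.79 TPM. At 14 DPI the injured muscles were at 69.7, 71.2, 95.6 and 106 TPM against 2.44 and 3.96 TPM, and at 28 DPI at 63.6, 64.8, 68.9 and 103 TPM against 0.88 and 1.2 TPM. Injured and contralateral muscles did not overlap. The log2 differences were 6.72 ± 0.41 (adjusted p = 4.91e-25), 6.39 ± 0.28 (9.34e-36), 4.37 ± 0.39 (9.02e-16) and 5.20 ± 0.39 (2.15e-19).

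**Figure D2:**
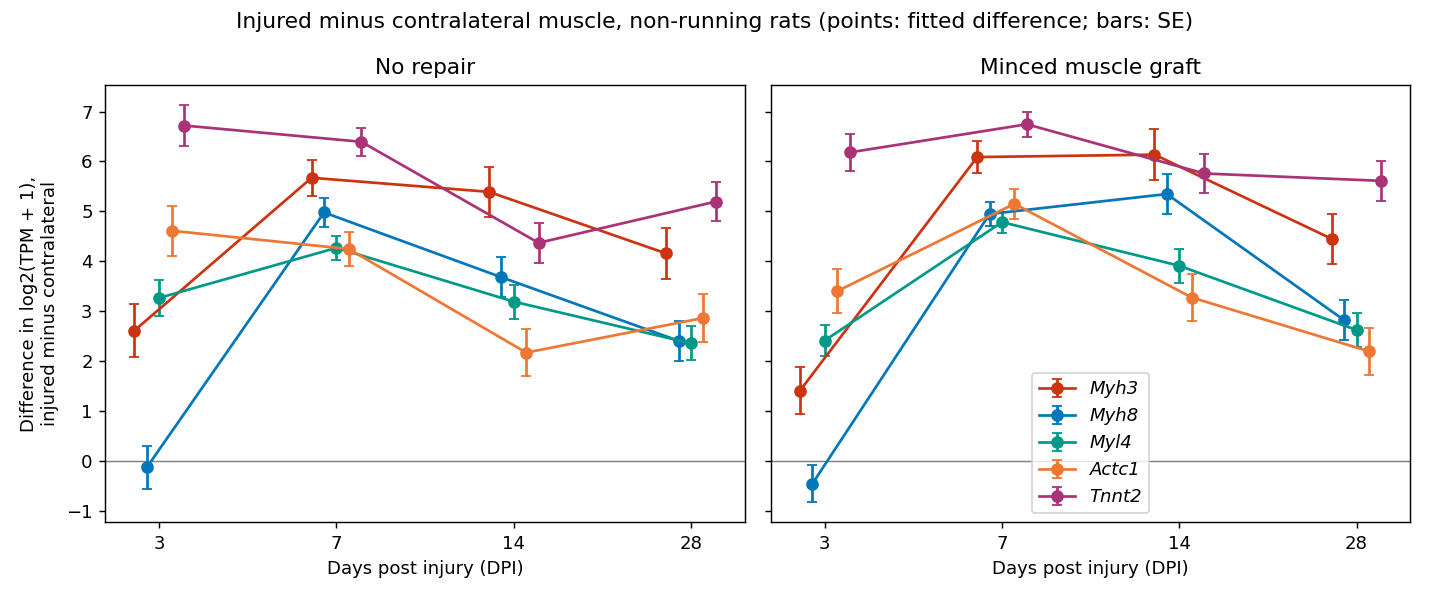
Fitted log2(TPM + 1) difference between injured and contralateral muscle (vertical axis, bars are SE) by days post injury for each member, without repair on the left and with minced graft on the right, in non-running rats. Myh8 is the only member near 0 at 3 DPI, and all members are above 2 at 7, 14 and 28 DPI in both panels.

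Heart markers were examined because 3 of the members are also cardiac genes. Myl7 was at 0 TPM in every injured muscle without repair at 3 DPI, and the summed level of the 7 heart markers (Nppa, Nppb, Myh6, Myl7, Tnni3, Mybpc3 and Ryr2) was 11.8 to 16.4 TPM in those muscles against 16.2 to 18.3 TPM in control muscle. At 7 DPI the sum ranged from 5.0 to 21.4 TPM. Against the contralateral muscle at 3 DPI, 2 of the 5 heart markers tested were higher and 2 lower, and at 14 and 28 DPI none was called. The 2 that were higher were Nppa and Nppb, which encode natriuretic peptides: Nppa was listed at 0 in both contralateral muscles, and Nppb had a log2 difference of 1.42. Myh6, the adult atrial heavy chain, was lower at 3 DPI (-2.69) and at 7 DPI (-1.22).

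Markers of other cells moved with the injury too. Summed over 9 leukocyte markers (Ptprc, Cd68, Cd14, Itgam, Csf1r, Lyz2, Cd163, Mrc1 and Aif1) the level was 17.0 to 38.2 TPM in control muscle, 4644 to 6139 TPM in injured muscle without repair at 3 DPI, 621 to 2964 TPM at 7 DPI, 413 to 504 TPM at 14 DPI and 233 to 782 TPM at 28 DPI. No leukocyte marker was at 0 in any of these groups. All 9 were called higher than in contralateral muscle at 3, 7 and 14 DPI, and 7 at 28 DPI. The 6 fibroblast markers (Col1a1, Col3a1, Pdgfra, Dcn, Lum and Postn) summed to 65.5 to 215 TPM in control muscle and to 5949 to 16849 TPM at 7 DPI, and all 6 were called higher from 7 DPI on. The summed satellite cell and myoblast markers (Pax7, Myf5, Myod1 and Cdh15) were 30.7 to 54.5 TPM in control muscle, 121 to 140.0 TPM at 3 DPI and 50.8 to 119 TPM at 7 DPI. Of the 4 smooth muscle markers 3, 3, 4 and 2 were called higher at the 4 days, and of the 3 endothelial markers 1, 2, 2 and 1. In these comparisons 38.2%, 47.4%, 21.1% and 13.3% of all tested genes were called, so the endothelial count at 3 DPI is near the general share. Of the 6 skeletal fiber markers 5 were tested, of which 5 and 4 were lower at 3 and 7 DPI. The part of the cell mixture in the members' levels was not tested.

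The next comparison followed the injured muscles without repair from day to day. From 3 to 7 DPI 4 of the 5 members rose and Tnnt2 did not, in a comparison in which 7.34% of all tested genes were called. Myh8 changed the most, by 4.72 ± 0.31 on the log2 scale (adjusted p = 1.54e-22), from a median of 4.76 to 170.1 TPM. Myh3 rose by 1.67 ± 0.40 (adjusted p = 4.33e-04), Myl4 by 1.29 ± 0.27 (4.91e-05) and Actc1 by 1.08 ± 0.37 (0.015). Actc1 overlapped between the days, and its call was lost without the 3 DPI muscle of rat 010 or 018 or the 7 DPI muscle of rat 105, at differences of 0.84 to 0.99. With the dropped libraries kept the calls of Actc1 (0.716, adjusted p = 0.459) and Myl4 (0.925, 0.204) were lost. Tnnt2 went from a median of 327 to 253 TPM, a difference of -0.55 ± 0.31 (adjusted p = 0.146).

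From 7 to 14 DPI Myh8, Myl4, Actc1 and Tnnt2 fell, by 1.33, 1.5, 1.04 and 1.53 on the log2 scale (adjusted p = 3.39e-05, 1.95e-07, 4.61e-03 and 2.59e-06). Myh3 passed the p threshold but not that for size, at -0.91 ± 0.36 (adjusted p = 0.0196). Over all tested genes 6.82% were called. With size factors in place of TPM scaling the median over all genes was -0.06 instead of -0.40, and 2 members, Myl4 and Tnnt2, were still called. The differences of Actc1 (-0.641, adjusted p = 0.115) and Myh8 (-0.94, 0.00331) were then not called. With the dropped libraries kept, Tnnt2 was the member still called. The Actc1 call was lost without the 7 DPI muscle of rat 012 or 105 or the 14 DPI muscle of rat 129 or 137, at differences of -0.996 to -0.951, and the Myh3 difference passed the size threshold without the 7 DPI muscle of rat 019 (-1.02) or the 14 DPI muscle of rat 141 (-1.07). From 14 to 28 DPI no member was called (0.459% of all tested genes were), with differences from -0.92 for Myh3 to -0.19 for Tnnt2. There limma's unadjusted p was under 0.05 for 3 members and for 1564 of the 11328 tested genes.

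Whether the injured minus contralateral difference itself changed between 7 and 28 DPI was tested as an interaction. It was smaller at 28 DPI for all 5 members, in a comparison that called 18.8% of all tested genes. The change was -2.57 ± 0.49 for Myh8 (adjusted p = 2.32e-05), -1.91 ± 0.42 for Myl4 (1.25e-04), -1.52 ± 0.62 for Myh3 (0.031), -1.38 ± 0.58 for Actc1 (0.0353) and -1.198 ± 0.48 for Tnnt2 (0.0285). At 28 DPI all 5 members were nevertheless still higher than in contralateral muscle, as given above. With size factors 2 of the 5 changes were called, for Myh8 and Myl4. Those of Myh3 (-0.922, adjusted p = 0.229), Actc1 (-0.759, 0.319) and Tnnt2 (-0.556, 0.348) were smaller and not called. With a pseudocount of 0.1 the calls of Myh3 (-1.41, adjusted p = 0.0627) and Tnnt2 (-0.909, 0.122) were lost, and in a fit of the compared groups alone that of Actc1 (-1.38, 0.0562). With the dropped libraries kept the Actc1 change was -2.81 (0.0147). Leaving out any 1 of the 18 muscles kept the calls of Myh8 and Myl4. The Myh3 call was lost without the contralateral muscle of rat 073, 105 or 106 or the injured muscle of rat 081 (-1.42 to -1.15). That of Actc1 was lost without the contralateral muscle of rat 073, 074, 106 or 125 or the injured muscle of rat 074, 082 or 105 (-1.45 to -0.937), and that of Tnnt2 without the contralateral muscle of rat 073, 074 or 106 or the injured muscle of rat 073 (-1.31 to -1.07). Without the contralateral muscle of rat 073 or 106 the members called were 2, and without that of rat 074 they were 3.

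Each developmental isoform was also set against the adult isoforms of its own protein, as a share of their summed TPM. These shares are a description. Myh3 made up a median of 0.0082% of the heavy chain genes Myh1, Myh2, Myh3, Myh4, Myh7 and Myh8 in control muscle, 1.11% in injured muscle without repair at 3 DPI, and 2.23%, 0.601% and 0.3005% at the later days. Myh8 made up 0.0262%, 0.101%, 1.98%, 0.384% and 0.181% in the same groups. Thus the highest share of either heavy chain in any muscle of these groups was 3.36%, for Myh3 at 7 DPI. Myl4 rose from 0.106% of Myl1, Myl3 and Myl4 to 3.93% at 3 DPI and 5.099% at 7 DPI, and stood at 0.613% at 28 DPI. Actc1 had the highest median share at 7, 14 and 28 DPI, and stood at 4.82% of the skeletal and cardiac alpha-actins at 3 DPI, 7.995% at 7 DPI and 1.17% at 28 DPI. Tnnt2 had its own highest share, and the highest median of the members, at 3 DPI, with 5.0% of the troponin T genes, followed by 1.77%, 0.367% and 0.267%.

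**Figure D3:**
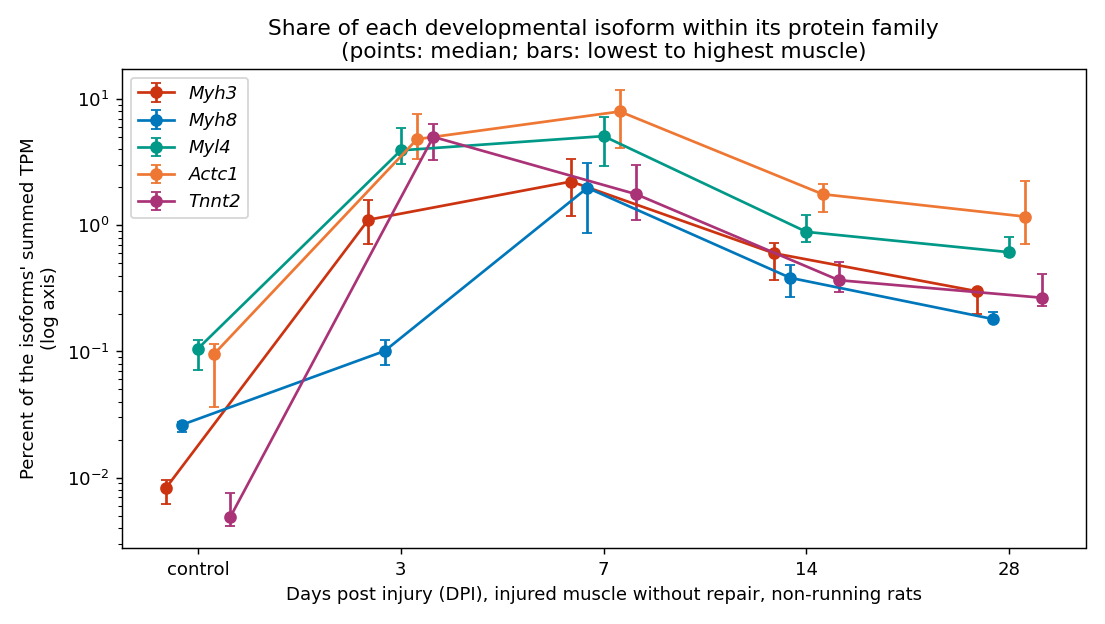
Share of each member in the summed TPM of the genes for its protein (vertical axis, percent, log axis) in control muscle and in injured muscle without repair at 3, 7, 14 and 28 DPI; points are medians and bars run from the lowest to the highest muscle. Tnnt2 is highest at 3 DPI (5.0%) and the other members at 7 DPI, and all shares at 28 DPI lie above those of control muscle.

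Most genes for adult isoforms were lower in injured muscle at 3 DPI. Of 20 adult sarcomere genes 17 were lower in injured than in contralateral muscle at 3 DPI and none was higher, with a median log2 difference of -1.69 beside 0.54 over all genes. The heavy chain genes Myh4 and Myh7 fell by 2.96 and 3.91, and Acta1 by 1.61. At 7 DPI 11 of the 20 were lower, 1 was higher and 8 were not called (median -1.11 beside 0.91). The gene that was higher was Tnni1, slow skeletal troponin I, which also belongs to the early set of developing muscle, with a difference of 1.79. At 14 and 28 DPI no adult sarcomere gene was lower, and Tnni1 was the one called higher, by 2.04 and 1.67. Among 6 tested genes of other developmental or cardiac isoforms, Myl6b, a slow light chain, was higher at 3, 7 and 14 DPI (1.95, 1.86 and 1.27), Nes, which encodes the intermediate filament nestin of immature fibers, was higher at each day (3.87, 3.75, 2.29 and 1.77), and Myh6 was lower at 3 and 7 DPI. Mybph, Myh7b and Tnni3 were not called.

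Some of the myogenic regulators were higher in injured muscle too. Of 10 genes listed 8 were in the table, and 4, 6, 5 and 5 of them were higher than in contralateral muscle at 3, 7, 14 and 28 DPI and none lower, with medians of 1.02, 2.17, 1.42 and 1.35. Myog, the factor of terminal muscle differentiation, was higher by 4.59, 4.68, 3.15 and 3.94 on the log2 scale. Tmem8c, which encodes the fusion protein myomaker, was higher by 5.20, 6.13, 4.042 and 4.37. Igf2, a growth factor made by differentiating muscle, was not called at 3 DPI (0.95) and was higher at 7, 14 and 28 DPI by 2.49, 2.57 and 2.18. Pax7, which marks satellite cells, was higher by 1.08, 1.33 and 1.201 at 3, 7 and 14 DPI.

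Of 10 genes of the neuromuscular junction and of denervated fibers, 8, 10, 10 and 9 were higher at the 4 days. Chrng, the fetal acetylcholine receptor subunit, was higher by 5.62, 6.84, 4.72 and 4.08. Chrne, the adult subunit that replaces it, had a difference of -0.32 at 3 DPI, which was not called, and was higher by 2.31, 2.05 and 2.24 at 7, 14 and 28 DPI. Ncam1, an adhesion molecule of developing and denervated fibers, was higher by 4.23, 5.1, 3.34 and 3.38. All lists were compared with the same contralateral muscles as the members, and each difference stands beside all-gene medians of 0.54, 0.91, 0.50 and 0.38.

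Among themselves the members fell into different patterns over the 76 injured muscles of all days, repair and running groups. The correlation of log2(TPM + 1) was 0.926 for Actc1 with Myl4, 0.911 for Myh3 with Myl4 and 0.897 for Myh3 with Myh8. It was 0.019 for Myh8 with Tnnt2. Over the 52 injured muscles from 7 DPI on the same pair had a correlation of 0.887, and Myl4 with Tnnt2 had 0.977. These muscles share days and groups, so the correlations describe the course as much as single muscles.

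The genes whose levels were most like those of each member, over the same 76 muscles, included several from the lists above. For Myh8 the nearest was Igf2 (r = 0.967), with Chrne (0.952) among the first 5. Over the 52 injured muscles from 7 DPI on, these 2 correlations were 0.905 and 0.718. For Tnnt2 the nearest was Nes (0.943). For Actc1 it was Tmem8c (0.953), with Chrng (0.877) among the first 5, and Tmem8c was also close to Myl4 (0.942). Tac3, which encodes a tachykinin peptide, was the nearest gene to both Myh3 (0.939) and Myl4 (0.953) and the second for Actc1 (0.913). Dcx, known as a microtubule protein of young neurons, was among the nearest to Myh3 (0.930).

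The study's question on repair was whether a minced graft changed the response. At 14 DPI Myh8 was higher in grafted than in unrepaired muscle, and was the member called. It was at 162, 188, 224 and 245 TPM in the 4 grafted muscles against 51.5, 55.7, 70.3 and 79.2 TPM without repair. The groups did not overlap, and the log2 difference was 1.66 ± 0.33 (adjusted p = 0.0118). Only 3 genes were called in this comparison (0.0265% of those tested). The other 2, named after their values were seen, were Cst6, which encodes a cystatin protease inhibitor (1.35 ± 0.22, adjusted p = 1.64e-04), and Rassf7 (1.03 ± 0.21, 0.0129).

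Myh3 at 14 DPI was at 170.0, 172, 190.3 and 297 TPM with graft against 70.2, 82.3, 104 and 132 TPM without (1.09 ± 0.41, adjusted p = 0.73). Tnnt2 was at 141, 161, 170.0 and 261 TPM against 69.7, 71.2, 95.6 and 106 TPM (1.07 ± 0.32, adjusted p = 0.49). Myl4 was at 431, 436, 449.9 and 672 TPM against 249.6, 255, 338 and 375 TPM (0.70 ± 0.28, adjusted p = 0.73). None of these 3 was called. Actc1 was at 849, 924, 1029 and 1046 TPM against 609.9, 649.6, 753 and 930.4 TPM, which overlapped (0.40 ± 0.39, adjusted p = 0.733). Grafted and unrepaired muscles did not overlap for 4 of the 5 members, against 7.92% of all tested genes.

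The Myh8 call rested on few muscles. Without the grafted muscle of rat 135 the difference was 1.57 (adjusted p = 0.102), and with a pseudocount of 0.1 in place of 1 it was 1.68 (adjusted p = 0.0665). Leaving out any of the other 7 muscles kept the call. When the dropped libraries were kept in the model the same difference had an adjusted p of 0.157.

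In running rats at 14 DPI Myh8 was at 105, 154, 178 and 263 TPM with graft and at 35.1, 72.9, 82.1 and 143 TPM without, which overlapped (1.15 ± 0.33, adjusted p = 0.772). Myh3 was at 100.2, 157, 157 and 361 TPM against 40.7, 90.7, 94.1 and 143 TPM. Tnnt2 was at 101, 134, 157 and 291 TPM against 33.5, 84.9, 100.5 and 148 TPM. No member was called in running rats at 3, 7, 14 or 28 DPI, where 0%, 0%, 0.0177% and 0.0177% of all tested genes were. There limma's unadjusted p was under 0.05 for 0, 0, 4 and 0 members, and for 229, 783, 223 and 231 of the 11328 tested genes. When the graft differences of running and non-running rats were averaged in the same model, a comparison added after the data were seen, Myh8 (1.41, adjusted p = 1.13e-04) and Tnnt2 (1.01, adjusted p = 0.014) were called at 14 DPI, among 4 genes in all (0.0353%). The other 2 were Cst6 and Mir433. Myh3 was then at 1.06 (adjusted p = 0.123). The same average was taken at 3, 7 and 28 DPI. No member was called at those days, where 0, 1 and 2 genes were called in all.

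**Figure D4:**
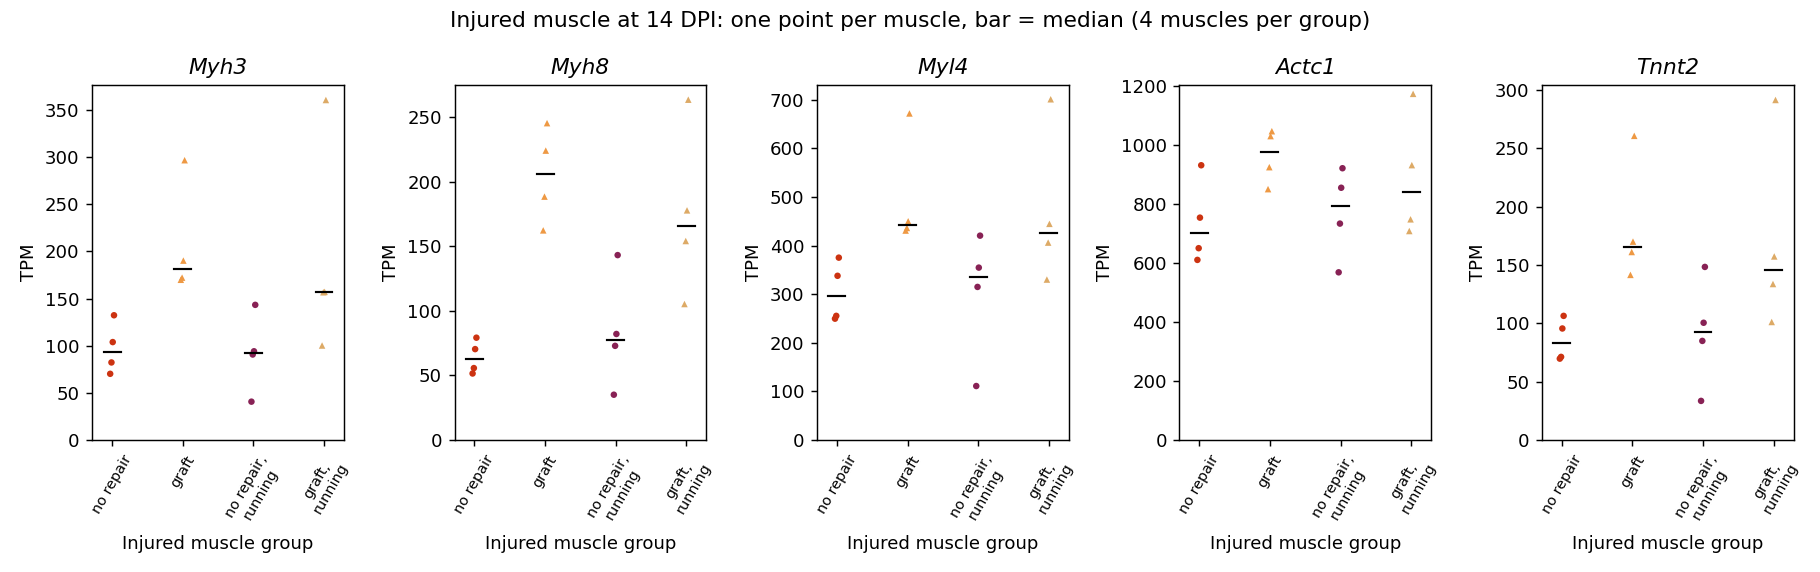
TPM of each member in injured muscle at 14 DPI (vertical axis, from 0) without repair and with minced graft, in non-running and in running rats; each point is a muscle and the bar is the median of 4. Grafted muscles lie above unrepaired muscles without overlap for Myh3, Myh8, Myl4 and Tnnt2 in non-running rats, and overlap for all members in running rats.

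At the other days no member was called between grafted and unrepaired muscle of non-running rats, where 0.00883%, 0.0883% and 0% of all tested genes were called at 3, 7 and 28 DPI. Before adjustment limma's p was under 0.05 for 2, 2 and 0 members at these days, and for 1957, 3064 and 141 of the 11328 tested genes. At 3 DPI the 2 members were Myl4 and Actc1, with differences of -0.80 and -0.84 (adjusted p = 0.175 and 0.253). The fitted differences of all 5 members were negative there, from -0.84 to -0.39, whereas at 7 and 14 DPI all 5 were positive. The members' levels are correlated, so these are not 5 separate signs. In running rats at 3 DPI the median of the members' differences was 0.167. At 3 DPI the 7 grafted muscles were at 9.23 to 53.3 TPM for Myh3 (median 39.0) beside 38.4, 43.2 and 103 TPM without repair, and the lowest grafted muscle, of rat 009, was also the lowest for Myl4, Actc1 and Tnnt2. At 7 DPI Tnnt2 was at 273 to 532 TPM (median 379.6) in 8 grafted muscles and at 150 to 331 TPM in 8 unrepaired muscles (0.67 ± 0.23, adjusted p = 0.0513). With the dropped libraries kept, Tnnt2 was called at 7 DPI (1.03, adjusted p = 0.00448). At 28 DPI Myh8 in grafted muscle was at 11.6, 49.0, 81.3 and 89.0 TPM, a wider spread than the 29.7 to 35.9 TPM without repair.

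Grafted muscle was also compared with the contralateral muscle of grafted rats. Here 4, 5, 5 and 5 members were called higher at 3, 7, 14 and 28 DPI, and the shares of all tested genes called were 44%, 46.2%, 26.1% and 19.1%. Myh8 was again not called at 3 DPI (-0.46 ± 0.37, adjusted p = 0.248) and reached differences of 4.95 ± 0.25, 5.35 ± 0.40 and 2.82 ± 0.40 at 7, 14 and 28 DPI. With size factors at 3 DPI Myh8 was called lower (-1.005, adjusted p = 0.00877) and Myh3 was not called (0.73, adjusted p = 0.143), and the Myh3 call was also lost without the contralateral muscle of rat 014 (0.87, adjusted p = 0.205). Without size factors the median over all genes was 0.66 at 3 DPI. Whether the injured minus contralateral difference itself depended on the graft was tested at each day: no member was called, and 0% of all tested genes were at 3, 7, 14 and 28 DPI. In that test the graft term at 14 DPI was 1.67 ± 0.57 for Myh8 and 1.39 ± 0.56 for Tnnt2, each with an adjusted p of 1, and 0, 1, 2 and 0 members had an unadjusted limma p under 0.05 at the 4 days. The same was true of 237, 1308, 100 and 63 of the 11328 tested genes.

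Running was compared in injured muscle without repair. No member was called at 3, 7, 14 or 28 DPI, where 0.0441%, 0%, 0.0177% and 0.0177% of all tested genes were. There limma's unadjusted p was under 0.05 for 3, 0, 0 and 1 members, and for 1643, 2414, 1128 and 429 of the 11328 tested genes. At 3 DPI the median of the members' differences was -0.811, beside 0.065 over all genes. Myl4 was then at 151 to 253 TPM in 8 running rats and at 264 to 534 TPM in 3 non-running rats. It was the 1 member that did not overlap, as was the case for 1.35% of all tested genes. At 7 DPI Myh8 was at 90.0, 206, 219 and 229 TPM in running rats beside 114 to 204 TPM in non-running rats. At 28 DPI Actc1 was at 109 and 182 TPM in 2 running rats against 277, 333, 583 and 797 TPM, which did not overlap (-1.69 ± 0.47, adjusted p = 0.273). Myl4 (117 and 158 TPM in running rats) and Tnnt2 (38.3 and 51.0 TPM) did not overlap with non-running rats at that day either, and 22.8% of all tested genes did not. Within running rats, injured against contralateral muscle, 4, 5 and 5 members were called at 3, 7 and 14 DPI (40.1%, 43.1% and 26.3% of all tested genes), the exception at 3 DPI being Myh8 (-0.42 ± 0.37, adjusted p = 0.295). No member was called in the test of whether running changed the injured minus contralateral difference at 3, 7 and 14 DPI (0.0971%, 0.00883% and 0% of all tested genes). In that test 1, 0 and 0 members had an unadjusted limma p under 0.05, as did 1229, 982 and 136 of the 11328 tested genes.

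The contralateral muscles were compared with control muscle to see whether the uninjured leg stayed at its baseline. Myh3 was higher in contralateral muscle at 3 DPI, and Actc1 at 14 DPI. Of all tested genes 6.43%, 0.803%, 0.715% and 0.185% were called at 3, 7, 14 and 28 DPI, so Myh3 was among many genes called at 3 DPI and Actc1 among few at 14 DPI. No member was called at 7 and 28 DPI, where limma's unadjusted p was under 0.05 for 2 and 0 members and for 2242 and 1317 of the 11328 tested genes.

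Myh3 was at 6.80 and 10.04 TPM in the 2 contralateral muscles at 3 DPI without repair or running, against 1.55 to 2.91 TPM in control muscle (1.49 ± 0.51, adjusted p = 0.0117). Over all 8 contralateral muscles at 3 DPI, of all repair and running groups, it ranged from 6.80 to 17.2 TPM, and all 8 lay above every control muscle, as they did for 39.9% of all tested genes. At 7 DPI 5 of 14 did (at least as many did for 46.3% of all tested genes), and at 14 and 28 DPI none of 8 and none of 4. The call was lost with size factors (1.09, adjusted p = 0.102), in a fit of these groups alone (1.49, 0.0714), with the dropped libraries kept (1.49, 0.146), and without either of the 2 contralateral muscles (1.74, 0.0719, without that of rat 010 and 1.24, 0.104, without that of rat 017). The summed leukocyte markers were 74.3 and 202 TPM in the same 2 muscles against 17.0 to 38.2 TPM in control muscle.

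Actc1 was at 95.5 and 269.9 TPM in the 2 contralateral muscles at 14 DPI without repair or running, against 25.2 to 50.7 TPM in control muscle (1.97 ± 0.47, adjusted p = 0.0104). All 8 contralateral muscles at 14 DPI, at 76.5 to 269.9 TPM, and all 4 at 28 DPI, at 50.8 to 83.2 TPM, lay above every control muscle. At 3 DPI 1 of 8 did, and at 7 DPI 11 of 14. At least as many did for 91.5%, 18.4%, 7.4% and 9.94% of all tested genes at 3, 7, 14 and 28 DPI. As a share of both alpha-actins it was 0.195% and 0.519% at 14 DPI against 0.0363% to 0.114% in control muscle. The call was lost without the muscle of rat 133 (1.23, adjusted p = 0.485), in a fit of these groups alone (1.97, 0.254), when control muscles were averaged per rat (1.95, 0.0725) and with the dropped libraries kept (1.97, adjusted p = 1).

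Myh8, Myl4 and Tnnt2 were not called in contralateral against control muscle at any day. Tnnt2 lay above every control muscle in 8 of 8 contralateral muscles at 3 DPI (1.88 to 3.06 TPM), 11 of 14 at 7 DPI and 8 of 8 at 14 DPI (1.96 to 4.16 TPM), and in none of 4 at 28 DPI, when 3 of 4 lay under every control muscle (at least as many did for 3.06% of all tested genes). At least as many muscles lay above every control for 39.9%, 18.4% and 7.4% of all tested genes at 3, 7 and 14 DPI, so the Tnnt2 separation at 3 DPI was shared with many genes. Myh8 lay under every control muscle in 6 of 8 contralateral muscles at 3 DPI, 14 of 14 at 7 DPI (2.31 to 5.27 TPM), 8 of 8 at 14 DPI and 4 of 4 at 28 DPI, and at least as many lay under every control for 1.48%, 0.927%, 4.08% and 1.39% of all tested genes at the 4 days. When the dropped libraries were kept, Myh8 was called lower at 7 DPI (-1.502, adjusted p = 0.00108). In that setting 4155 genes were called instead of 91, of which 25 were higher, and the median over all genes was -0.724. Without the contralateral muscle of rat 125, Actc1 was called higher at 7 DPI.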

How the data were processed

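Total RNA of TA muscle was sequenced as TruSeq libraries. The authors pseudo-aligned reads to the rat transcriptome with kallisto and deposited a table of TPM (transcript abundance scaled for length and library total) per gene symbol. DESeq is also named in the submitters' processing notes, and no values from it were used. Of 16182 entries the last was cut off and was left out. Read depth cannot be recovered from TPM. Libraries with fewer than 7000 symbols above 1 TPM were dropped (13 of 138, with 901 to 5712 such symbols), and this took away 2 muscles, both contralateral at 7 DPI without repair or running. Another 9 libraries with conflicting labels entered no group, and libraries of the same muscle were averaged, giving 114 muscles from 116 libraries. No table column lacked a sample.

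Groups were compared on log2(TPM + 1) with limma 3.58.1 in R 4.3.3, with 1 mean per group over all 31 groups (83 residual degrees of freedom) and an intensity trend, for 11328 genes with a group mean above 1 TPM. P-values were adjusted by Benjamini-Hochberg over all of them and are two-sided. The model was tested on simulated data first. Descriptions and figures used Python 3.11.15 with pandas 2.3.3 and matplotlib 3.10.9. The pseudocount makes fold changes of low genes too small. The genes named are the 5 members, the listed isoform, regulator, junction and cell marker genes, the 5 genes most correlated with each member, and the other genes called between graft and no repair at 14 DPI, named after their values were seen. Members and lists were chosen with earlier results of these data known. Mef2c, Mymx and Ttn of the lists were not analysed here.

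Injured and contralateral muscles of the same rat are pairs because they come from the same animal. The residuals of same-rat muscles, the left and right control muscles included, had a mean correlation of 0.0722 over 36 pairs, against -0.00871 between rats, and rat was used as a block in an alternative. Further alternatives kept all libraries, used a pseudocount of 0.1, left out the filter on low genes, scaled by size factors (median of ratios), took each library as its own sample, fitted the compared groups alone, left out running rats, averaged control muscles per rat, or left out each of 86 muscles in turn (the non-running rats and the unrepaired injured muscles of running rats, in comparisons of these). Promoter windows were read from a RefSeq table of assembly GRCr8.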

Additional observations from a re-analysis of the deposited data

Results flagged for a closer look

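Within groups of 4 to 10 muscles, a muscle far from the rest of its group on the log2(TPM + 1) scale was looked for with Dixon's ratio, the gap to the nearest muscle divided by the range of the group. Of 80 tests 13 exceeded the 95% limit, which chance would exceed in about 1 of 20. Rat 009 accounted for 3 of them, as the lowest grafted muscle at 3 DPI for Myl4 (71.6 TPM, ratio 0.752), Actc1 (103.6 TPM, 0.701) and Tnnt2 (127 TPM, 0.606). At 7 DPI rat 031 was lowest among unrepaired running rats for Myh8 (90.0 TPM, 0.884) and Tnnt2 (192 TPM, 0.85), rat 027 lowest among grafted running rats for Tnnt2 (163 TPM, 0.894), and rat 019 lowest among unrepaired non-running rats for Myh3 (105 TPM, 0.547). In contralateral muscle of grafted rats at 7 DPI, rat 016 was highest for Myl4 (47.4 TPM, 0.671) and lowest for Actc1 (23.2 TPM, 0.703), and rat 108 was lowest for Tnnt2 (0.97 TPM, 0.838). The others were the highest grafted muscle at 14 DPI for Myl4, of rat 135 (672 TPM, 0.902), the highest unrepaired muscle at 28 DPI for Tnnt2, of rat 081 (103 TPM, 0.835), and the highest control muscle for Tnnt2 (1.76 TPM, 0.842).

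The injured minus contralateral difference of all 5 members differed between 28 and 7 DPI by limma's interaction test. The calls of Myh3, Actc1 and Tnnt2 were lost when single muscles were left out. They were also lost with size factors, at -0.922, -0.759 and -0.556. The change from 7 to 28 DPI was -1.38 for Actc1, -1.52 for Myh3, -2.57 for Myh8, -1.91 for Myl4 and -1.198 for Tnnt2 on the log2 scale, beside a median of -0.53 over all genes.

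Among the 9 libraries with conflicting labels, each member reached levels above every control muscle. The highest values were 60.7 TPM for Myh3, 53.4 for Myh8, 173 for Myl4 and 84.5 for Tnnt2 in a library of rat 080, and 423 TPM for Actc1 in a library of rat 079.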

How the results depend on the processing

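Against the contralateral muscle, the number of members called in injured muscle at 7, 14 and 28 DPI was 5 under every alternative, with and without graft. With rat as a replicate block (correlation 0.026) 5 members were again called in injured against contralateral muscle at 7 DPI and no call of a member changed in any comparison. Of the 651 alternative counts of members called, 627 stayed within 1.5 times the reported count. These counts disregard which members were called and in which direction, and they include counts of 0 that stayed 0 when single muscles were left out. In grafted against contralateral muscle at 3 DPI with size factors the count stayed, though Myh3 lost its call and Myh8 was called lower.

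The counts of members called that moved by over 1.5 times were the following. The number of members called was 0 in contralateral against control muscle at 3 DPI with all libraries kept, with size factors and with the compared groups alone, and 0 at 14 DPI with all libraries kept, the compared groups alone and control muscles averaged per rat. It was 1 at 7 DPI with all libraries kept, a setting in which 4155 genes were called instead of 91. Between graft and no repair the number of members called was 0 at 14 DPI with all libraries kept and with a pseudocount of 0.1, and 2 with running and non-running rats together. At 7 DPI it was 1 with all libraries kept, among 124 genes called instead of 10. The interaction between 28 and 7 DPI called 3 members with a pseudocount of 0.1 and 2 with size factors. From 3 to 7 DPI 2 members were called with all libraries kept, and from 7 to 14 DPI 1 with all libraries kept and 2 with size factors. Leaving out each muscle in turn gave 0 to 1 members in contralateral against control muscle at 3, 7 and 14 DPI and in graft against no repair at 14 DPI, and 2 to 5 in the interaction between 28 and 7 DPI.

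Among the differences given for single members, direction turned only where they were not called. In contralateral against control muscle these were, with all libraries kept at 7 DPI, Myh3 (-0.405), Myl4 (-0.889), Actc1 (-0.854) and Tnnt2 (-0.165), and, with size factors at 3 DPI, Myl4 (-0.445). With size factors Myh8 turned in graft against no repair at 7 DPI (-0.036). When muscles were left out in turn, Myh8 in injured against contralateral muscle at 3 DPI ranged from -0.434 to 0.166, Myh8 with running at 28 DPI from -0.49 to 0.138, and, in contralateral against control muscle, Myl4 at 14 DPI from -0.067 to 0.06 and Myh3 at 7 DPI from -0.079 to 0.277. The causes were not tested.

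Size factors moved the median of all genes in injured against contralateral muscle from 0.54, 0.91, 0.50 and 0.38 to 0.05, 0.06, 0.00 and 0.02 at 3, 7, 14 and 28 DPI, and the share of higher genes among those called from 84.5%, 95.8%, 99.2% and 98.4% to 60.4%, 59.3%, 73.5% and 82.7%. With size factors 3529 instead of 5365 genes were called there at 7 DPI, 976 instead of 1508 at 28 DPI, 1119 instead of 2135 in the interaction and 476 instead of 773 from 7 to 14 DPI. A pseudocount of 0.1 gave 3850 instead of 2385 genes at 14 DPI and 2800 instead of 1508 at 28 DPI against the contralateral muscle. With all libraries kept 8144 genes were called against the contralateral muscle at 7 DPI. In contralateral against control muscle at 3 DPI the count was 728, and 24 to 2182 under the alternatives. TPM leave the read depth of each library unknown, so no counting error stands behind low values.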

Other observations

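Of the 9 libraries kept out of all groups, 8 were day 28 libraries of rats that ran, and their titles contradict their labels as to which leg was injured. The 4 libraries titled as injured and labelled uninjured had Myh3 at 1.01, 1.18, 1.34 and 2.03 TPM, Myh8 at 4.74, 4.83, 4.84 and 5.37 TPM and Tnnt2 at 1.00, 1.34, 1.43 and 1.63 TPM. The 4 titled as control and labelled injured had Myh3 at 10.4, 29.4, 42.5 and 60.7 TPM, Myh8 at 12.3, 25.8, 29.2 and 53.4 TPM and Tnnt2 at 26.8, 45.3, 51.7 and 84.5 TPM. In the same 2 sets Myl4 was at 29.4 to 36.1 and 95.3 to 173 TPM, and Actc1 at 46.1 to 108 and 190.1 to 423 TPM. The remaining library, a contralateral muscle whose labelled day differs from that of the same rat's injured muscle, had Actc1 at 196 TPM and Myh3 at 2.42 TPM.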
